A study of Mus musculus with 768 samples.

Results

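The genes described here are 8 of the 24490 endogenous genes in the tables, chosen by symbol: *Kcnj8*, *Abcc9* and *Abcc8*, which encode subunits of ATP-sensitive potassium (KATP) channels, and *Gja4*, *Gja1*, *Gja5*, *Gjc1* and *Gjb2*, which encode the gap junction proteins connexin 37, 43, 40, 45 and 26. Single cells came from 2 mammary tumors of 14-week-old mice of the strain FVB/N-Tg(MMTVPyVT)634Mul/J, in which the MMTV promoter drives the polyoma middle T oncogene. Viable cells without surface EpCAM, CD45, CD31 and NG2 had been sorted 1 per well and sequenced with Smart-seq2, a full-length method without molecular identifiers. Each tumor filled 1 plate, so that tumor and plate cannot be told apart, and no tumor-free tissue was sampled. Comparisons between populations therefore rest on n = 2 tumors, and cells were not counted as replicates.

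Of 768 wells, 727 held at least 10000 reads on endogenous genes, with 10281 to 1190516 reads each (median 219264 in tumor 1 and 198180 in tumor 2). The cells were divided into populations by clustering on the most variable of the other genes, with the 8 genes and their listed partners left out. Vascular CAF-like cells, called vascular below, numbered 541 over both tumors (76.9% and 71.8% of the wells of tumor 1 and tumor 2), and matrix CAF-like cells, called matrix below, numbered 75 and 65. CAF stands for cancer-associated fibroblast. Developmental CAF-like cells numbered 9 and 21, and 2 clusters with 16 wells in all stayed unnamed. The clustering map did not separate cycling cells, so the 41 vascular cells (23 and 18) that a graph clustering placed in a cluster led by mitotic genes were taken as cycling. In counts summed per tumor, 12 of 12 vascular markers were higher and 12 of 12 matrix markers lower in vascular than in matrix cells by edgeR's quasi-likelihood test, from the genes that the populations were named by. Of the genes of the surface proteins sorted against, *Pecam1* (CD31) and *Ptprc* (CD45) had 0 reads in vascular cells and *Epcam* 10.8 and 7.56 CPM, CPM being reads scaled to the same total in every library. *Cspg4*, which encodes NG2 and is one of the 12 vascular markers, was not low: it had 351.7 and 478.4 CPM in vascular and 65.7 and 142.97 in matrix cells. In the 2 tumors, the 7 endothelial genes listed summed to 9.95 and 6.24 CPM in vascular cells, the 7 epithelial genes to 35.1 and 29.3 and the 6 immune genes to 2.36 and 2.88. In matrix cells these lists summed to 34.7 and 24.3, to 11.8 and 20.8 and to 12 and 12 CPM. The 6 smooth muscle genes listed, which the sort did not select against, summed to 1527 and 1284 CPM in vascular and 489 and 626 in matrix cells.

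A KATP channel joins 4 pore subunits to 4 sulfonylurea receptors and closes when ATP binds, which ties the membrane potential to the energy state of the cell. In the vessel wall, pericytes and smooth muscle cells use the pore subunit Kir6.1, encoded by *Kcnj8*, with the receptor SUR2, encoded by *Abcc9*, whereas pancreatic beta cells use Kir6.2 from *Kcnj11* with SUR1 from *Abcc8*. Connexins assemble into channels between neighbouring cells that pass ions and small metabolites. *Gja1* is the connexin most widely used by fibroblasts, *Gja4* and *Gja5* are known from arterial vessels, *Gjc1* from mural and cardiac cells, and *Gjb2* from epithelia.

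In the RefSeq annotation of GRCm38.p6, the assembly that mm10 names, *Kcnj8* (chr6:142564837-142571614) and *Abcc9* (chr6:142587862-142702766) were neighbours on the minus strand with 16247 bases between them. *Kcnj11* (chr7:46097123-46100952) and *Abcc8* (chr7:46104523-46180039) formed the other such pair, with 3570 bases between them. *Gja4* lay at chr4:127311420-127314039, *Gja1* at chr10:56377300-56390419, *Gja5* at chr3:97032402-97053634, *Gjc1* at chr11:102799477-102819686 and *Gjb2* at chr14:57098602-57104702. A RefSeq promoter sequence was matched for 6 of the 8 genes. The 250 bases before the start site of the 2 channel genes, of *Gja4* and of *Gja1* are shown because the results turn on these genes. *Gjc1*, the connexin that led in most vascular cells, and *Abcc8* are named only. Each is written 5′ to 3′ on the strand of the gene, and capitals mark matches on either strand to an E-box (CANNTG), a GC box (GGGCGG) or an RBPJ site (TGGGAA).
Kcnj8, chr6:142571615-142571864, minus strand: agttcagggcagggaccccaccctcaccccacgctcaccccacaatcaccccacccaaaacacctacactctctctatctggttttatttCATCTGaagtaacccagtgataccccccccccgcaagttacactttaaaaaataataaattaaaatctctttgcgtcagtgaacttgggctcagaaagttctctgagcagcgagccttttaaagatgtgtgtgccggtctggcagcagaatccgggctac
Abcc9, chr6:142702275-142702524, minus strand: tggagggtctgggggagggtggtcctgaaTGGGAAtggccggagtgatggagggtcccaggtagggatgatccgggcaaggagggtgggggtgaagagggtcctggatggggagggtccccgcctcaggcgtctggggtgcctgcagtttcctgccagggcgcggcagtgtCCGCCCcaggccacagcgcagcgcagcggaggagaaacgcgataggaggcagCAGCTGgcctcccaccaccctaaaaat
Gja4, chr4:127314040-127314289, minus strand: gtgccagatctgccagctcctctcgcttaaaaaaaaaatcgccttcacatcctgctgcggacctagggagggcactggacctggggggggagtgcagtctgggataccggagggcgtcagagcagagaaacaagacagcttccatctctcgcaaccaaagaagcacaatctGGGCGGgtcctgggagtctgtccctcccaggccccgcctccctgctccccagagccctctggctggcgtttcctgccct
Gja1, chr10:56377050-56377299, plus strand: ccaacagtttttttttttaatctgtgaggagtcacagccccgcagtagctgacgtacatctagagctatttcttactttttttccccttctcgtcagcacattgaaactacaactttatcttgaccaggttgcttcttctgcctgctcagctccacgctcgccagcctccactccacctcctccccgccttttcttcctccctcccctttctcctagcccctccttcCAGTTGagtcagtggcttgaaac
The start site used for *Abcc9* lies inside the span listed for the gene. The *Kcnj8* window held 1 E-box and had a GC content of 49.2%, and the *Abcc9* window held 1 E-box, 1 GC box and 1 RBPJ site at 66.8% GC, so the 2 neighbours shared the E-box letters only. The *Gja4* window held 1 GC box (61.2% GC) and the *Gja1* window 1 E-box (50% GC). Among 32841 RefSeq windows of this length, 66.2% held an E-box, 32.7% a GC box and 21.6% an RBPJ site, and the median GC content was 52.4%. Neither a TATA box (TATAAA) nor a CArG box, held by 12.4% and 1.47% of the windows, was matched in these 4 windows.

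*Kcnj8*, the pore subunit, was read in most vascular cells and was the member with the highest level per length there. On the scale of log2(RPKM + 1), where RPKM is a read count divided by gene length and by library depth, it averaged 7.94 over the vascular cells of tumor 1 and 8.03 over those of tumor 2 (7.99 ± 0.06, SD, n = 2 tumors). Reads of *Kcnj8* were found in 92.3% of the vascular cells of tumor 1 (95% interval 88.6 to 95.1) and in 91.7% of those of tumor 2 (87.6 to 94.8), where intervals are exact binomial ones and cover counting error only, since reads without molecular identifiers are not independent molecules. The median cell stood at 9.03 and 9.28 on the log2 scale, and the highest at 11.97 and 11.96. The matrix cells averaged 0.96 and 0.92 on this scale, and the developmental cells 0.61 and 1.36. The vascular values lay far above both of these, whereas matrix and developmental cells did not differ beyond the spread between the tumors.

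*Abcc9*, the receptor subunit, followed the same order. Vascular cells averaged 7.14 and 7.61 on the log2(RPKM + 1) scale (7.37 ± 0.34, n = 2), matrix cells 0.57 and 0.41, and developmental cells 0.38 and 0.96. Reads of *Abcc9* were found in 94.8% (interval 91.5 to 97) and 96.5% (93.4 to 98.4) of the vascular cells. In matrix cells 56% and 41.5% held at least 1 read, but 5.33% and 1.54% held 5 or more. The corresponding shares of matrix cells for *Kcnj8* were 38.7% and 50.8% at 1 read and 5.33% and 1.54% at 5 reads, so most detections of both subunits in matrix cells rested on 1 to 4 reads.

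*Abcc8*, the receptor of the other pair, had 1 read in 1 of the 727 cells (0.138%, 95% interval 0.00348 to 0.764), a vascular cell of tumor 1. *Kcnj11*, its pore partner and not one of the 8 genes, had 7 reads in 7 cells, all of them vascular (3 and 4 cells). The 140 matrix cells held 0 reads of both genes, which allows a share of cells with a read of up to 2.14%, taking 3 counts as the limit of a count of 0 here and below. The neighbouring pair on chromosome 6 was thus read at high level in vascular cells, and the pair on chromosome 7 was not detected above single reads at this depth.

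**Figure D1:**
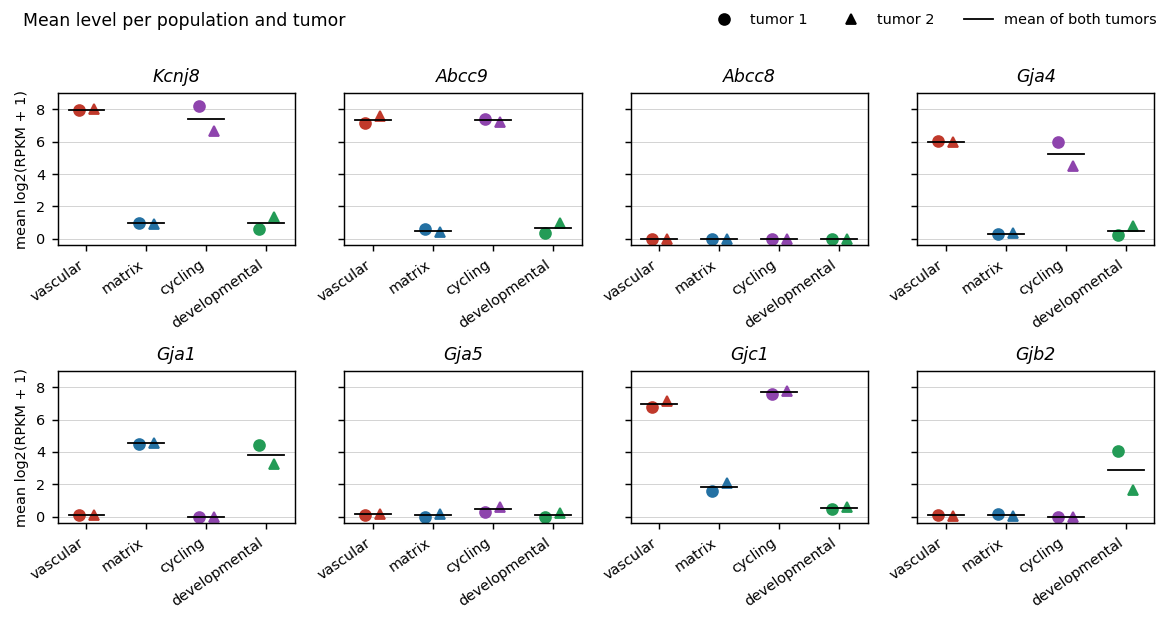
Mean log2(RPKM + 1) of each of the 8 genes (y axis) in 4 populations (x axis), with 1 point per tumor and a line at the mean of both tumors, where the vascular population includes the cycling cells. Kcnj8, Abcc9, Gja4 and Gjc1 stood at 6.01 or above on average in vascular cells and below 2 in matrix cells, while Gja1 showed 4.53 in matrix against 0.12 in vascular cells.

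The 2 subunits of the vascular channel were found together in most vascular cells. Over both tumors, 487 of 541 vascular cells held reads of both *Kcnj8* and *Abcc9*, which was 89.9% of the cells in tumor 1 (95% interval 85.8 to 93.1) and 90.2% in tumor 2 (85.8 to 93.5). *Kcnj8* alone was found in 7 and 4 cells, *Abcc9* alone in 14 and 16, and neither in 8 and 5. With shares this high, the product of the single shares was already 87.5% and 88.5%, so detection alone shows little about pairing. At 5 or more reads, 461 of the 541 cells held both, 2 held *Kcnj8* alone and 44 held *Abcc9* alone, so the unpaired cells at this level nearly all carried the receptor.

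Cells with neither subunit were shallow, and those with *Abcc9* alone less so, while the few with *Kcnj8* alone were shallow too. The median depth was 60648 and 28662 reads in the vascular cells with neither, 42518 and 96709 in those with *Kcnj8* alone, 117732 and 183962 in those with *Abcc9* alone, and 204024 and 195239 in those with both. With the vascular cells divided into 3 equal groups by depth, the share with both was 80.2% in the shallowest, 94.7% in the middle and 94.8% in the deepest group of tumor 1, and 85.9%, 94% and 90.6% in tumor 2. After cells with at least 50000 reads were thinned to that depth and shallower ones left out, 506 of the 541 vascular cells remained, and 89.3% and 91.1% of them held both. Among matrix cells 28% and 29.2% held both subunits at 1 read, 6.85% and 4.62% after thinning, and 4% and 1.54% at 5 reads (3 and 1 cells).

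Across vascular cells the levels of the subunits ran in parallel. The correlation of log2(RPKM + 1) was Pearson's r = 0.73 and Spearman's rho = 0.64 over the vascular cells of tumor 1, and 0.70 and 0.70 over those of tumor 2 (541 cells in all). These are descriptions over cells that share a plate and differ in depth. Per length, the pore subunit was usually the higher one: *Kcnj8* exceeded *Abcc9* in RPKM in 81% and 76% of the cells with both. The median log2 ratio of the RPKM of *Kcnj8* over *Abcc9* was 1.40 (quartiles 0.27 and 2.22) in tumor 1 and 1.08 (0.17 and 1.73) in tumor 2.

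**Figure D2:**
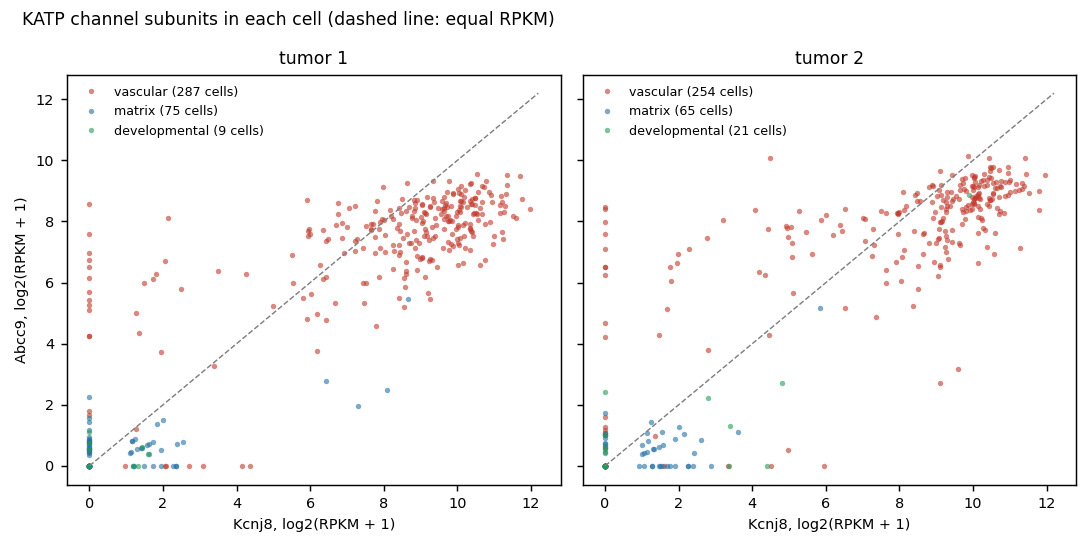
Abcc9 (y axis) against Kcnj8 (x axis), both as log2(RPKM + 1), with 1 point per cell, colored by population, in tumor 1 (left) and tumor 2 (right), and a dashed line at equal RPKM. Most vascular cells form 1 cloud high on both axes, of which 81% and 76% of the cells with both genes lie on the Kcnj8 side of the line, and a smaller set carries Abcc9 at a Kcnj8 value of 0.

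Among the connexins, *Gja4* and *Gjc1* were the ones read in vascular cells. *Gja4* averaged 6.02 and 6.01 on the log2(RPKM + 1) scale (6.01 ± 0.009, n = 2), and 78.4% (73.2 to 83) and 78.3% (72.8 to 83.3) of the vascular cells held reads of it. *Gjc1* reached 6.79 and 7.18 (6.99 ± 0.28) with reads in 91.3% (87.4 to 94.3) and 93.7% (90 to 96.4). In matrix cells *Gja4* had a mean of 0.30 and 0.32 and no cell with 5 or more reads. *Gjc1* was not confined to vascular cells, with a mean of 1.55 and 2.09 and at least 1 read in 40% and 52.3% of the matrix cells. In developmental cells *Gjc1* averaged 0.45 and 0.58, below the matrix cells in both tumors, and *Gja4* 0.22 and 0.76.

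*Gja1* showed the opposite arrangement. It averaged 4.49 and 4.57 on the log2(RPKM + 1) scale in matrix cells (4.53 ± 0.06) and 4.42 and 3.23 in developmental cells (3.83 ± 0.85), which did not differ beyond the spread between tumors, and 0.11 and 0.12 in vascular cells. Matrix cells held reads of *Gja1* in 78.7% (67.7 to 87.3) and 78.5% (66.5 to 87.7), and vascular cells in 4.18% (2.18 to 7.19) and 5.51% (3.05 to 9.08). The 41 cycling cells held 0 reads of it, which allows a share of up to 7.32%.

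The few *Gja1* reads of vascular cells lay in few wells. In tumor 1, 2521 of 2578 reads (97.8%) came from 1 well with 116336 reads in all, which held 628 reads of epithelial markers, 3 of *Abcc9* and 0 of *Kcnj8*. In tumor 2, 76.2% came from 1 well that held 6728 reads of matrix markers and 35 of *Abcc9*, and that the graph clustering placed with the matrix cells. Of the others, 1 well held 45 reads, 1 held 43, and the remaining 537 vascular wells held 24 reads in all. So the summed level of *Gja1* in vascular cells was set by 2 wells whose other markers were epithelial in one and of matrix cells in the other, and how these wells arose was not tested.

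Taking for each cell the connexin of highest RPKM, vascular cells divided between *Gjc1* (53% and 58.7% of the cells) and *Gja4* (40.1% and 37%), and 4.88% and 3.54% held none of the 5. *Gja1* led in 1 vascular cell of each tumor. Matrix cells were led by *Gja1* in 68% (56.2 to 78.3) and 73.8% (61.5 to 84), by *Gjc1* in 16% and 13.8% and by *Gja4* in 4% and 1.54%, and 12% and 10.8% held none. Of the RPKM summed over the 5 connexins, *Gja4* made up 49.5% and 46.2% and *Gjc1* 46.9% and 53.3% in vascular cells, and *Gja1* 85.7% and 79.8% in matrix cells.

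The 2 vascular connexins were mostly read in the same cells. Both were read in 411 of the 541 vascular cells (76% in each tumor), *Gja4* alone in 13 and *Gjc1* alone in 89. With single shares of 78.4% and 78.3% for *Gja4* and 91.3% and 93.7% for *Gjc1*, a large overlap is given already, so detection alone shows little about pairing. Vascular cells with neither had a median depth of 100682 and 38141 reads. Within the cells that held both, *Gja4* had the higher RPKM in 50% and 45.6%, and the median log2 ratio of *Gja4* over *Gjc1* was -0.02 (quartiles -0.96 and 1.21) and -0.18 (-1.34 and 0.81). Their levels correlated with Spearman's rho of 0.35 and 0.38 across vascular cells, below the 0.64 and 0.70 of the channel subunits. All 4 of *Kcnj8*, *Abcc9*, *Gja4* and *Gjc1* had 5 or more reads in 66.9% and 65.7% of the vascular cells, and in 0 of the 140 matrix cells.

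**Figure D3:**
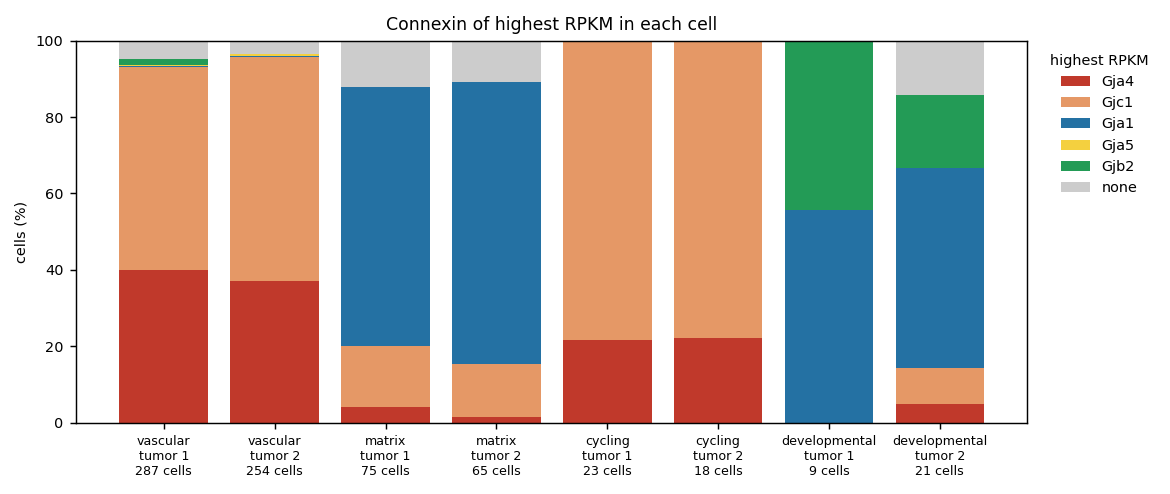
Share of cells (y axis, percent) in which each of the 5 connexins has the highest RPKM, per population and tumor, with gray for cells that hold none of them. Vascular bars are divided between Gjc1 and Gja4, cycling bars are led by Gjc1 (78.3% and 77.8%), and matrix bars by Gja1 (68% and 73.8%).

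*Gja5* and *Gjb2* were rare. *Gja5* was read in 8 vascular cells of each tumor (2.79% and 3.15%), at 5 or more reads in 5 and 7 of them, and its average on the log2(RPKM + 1) scale was 0.12 and 0.15. In matrix cells it had 0 reads in tumor 1 and 54 reads in 2 wells of tumor 2. *Gjb2* was read in 29 of the 727 cells. Its highest levels were in developmental cells, with 1926 reads in 4 of 9 wells of tumor 1 (694, 644 and 422 in the top 3) and 73 reads in 7 of 21 wells of tumor 2. Epithelial markers stood at 1781 and 291.1 CPM in the developmental cells, against 35.1 and 29.3 in vascular cells, and their part in the *Gjb2* reads was not tested.

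To compare populations with the tumor as the unit, the reads of all cells of 1 population and tumor were added into 1 library, and levels of summed libraries are given as CPM. Of the 11715 genes tested by edgeR's quasi-likelihood test, 1969 (16.8%) were called between vascular and matrix cells at an adjusted p of 0.05, 837 of them higher (7.14%) and 1132 lower (9.66%) in vascular cells. Of the 8 genes, 7 could be tested, and 4 were higher in vascular cells (*Gja4*, *Abcc9*, *Kcnj8* and *Gjc1*) and 0 lower, with a median log2 fold change of 4.25 over the 7 beside 0.04 over all genes. At an unadjusted p of 0.05, 1 was lower, and DESeq2 also called 1 lower, in both cases *Gja1*. The populations were drawn from other genes of the same cells, so this test is not independent of the clustering.

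*Gja4* had 483 and 559 CPM in the vascular libraries of the 2 tumors and 0.614 and 0.856 in the matrix libraries. The log2 fold change was 9.18 ± 0.26 (SE, adjusted p = 0.000215, edgeR), the largest of the 8 genes. *Abcc9* had 1874 and 2649 against 6.94 and 4.83 CPM (8.27 ± 0.34, adjusted p = 0.000262). For both genes the lowest vascular library was far above the highest matrix library.

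*Kcnj8* had 1775 and 2065 CPM in vascular and 21.8 and 3.97 in matrix libraries, a log2 fold change of 6.90 ± 0.87 (adjusted p = 0.00545, edgeR). The matrix libraries differed between the tumors because 3 of 75 wells of tumor 1 held 90.7% of its 461 reads. Without the matrix well with most *Kcnj8* reads, the log2 fold change was 7.58, given as a description because the well was chosen by this value. *Gjc1* had 537 and 716 CPM in vascular and 21.3 and 32.3 in matrix libraries (4.25 ± 0.29, adjusted p = 0.000965), the smallest of the 4 differences called.

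*Gja1* had 44 and 4.59 CPM in vascular and 257.9 and 276.5 in matrix libraries, a log2 fold change of -3.75 ± 1.00 that did not pass the threshold (adjusted p = 0.0614, edgeR). With the tumor as a block, where 20% of all genes were called (8.5% higher and 11.5% lower in vascular cells), it passed (-4.49 ± 0.85, adjusted p = 0.0157). Without the single vascular well that held 97.8% of the reads in tumor 1, the vascular library of that tumor had 0.975 CPM and the log2 fold change was -6.90, which is a description and no test, since the well was chosen by its *Gja1* reads. With populations taken from the graph clustering it was -8.59 ± 0.77 (adjusted p = 0.00129). That clustering placed the same well of tumor 1 in the unnamed cluster 6 and the *Gja1*-rich well of tumor 2 with the matrix cells. Neither well was thus in its vascular group, so this fit also lacks the wells that set the vascular *Gja1* level. *Gja5* (1.46 ± 1.66, adjusted p = 0.623) and *Gjb2* (0.75 ± 1.32, adjusted p = 0.763) did not pass, and *Abcc8* was too low to be tested. *Gja5* passed without the matrix library of tumor 2 (adjusted p = 0.0249), which leaves a matrix group with 0 reads of it.

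**Figure D4:**
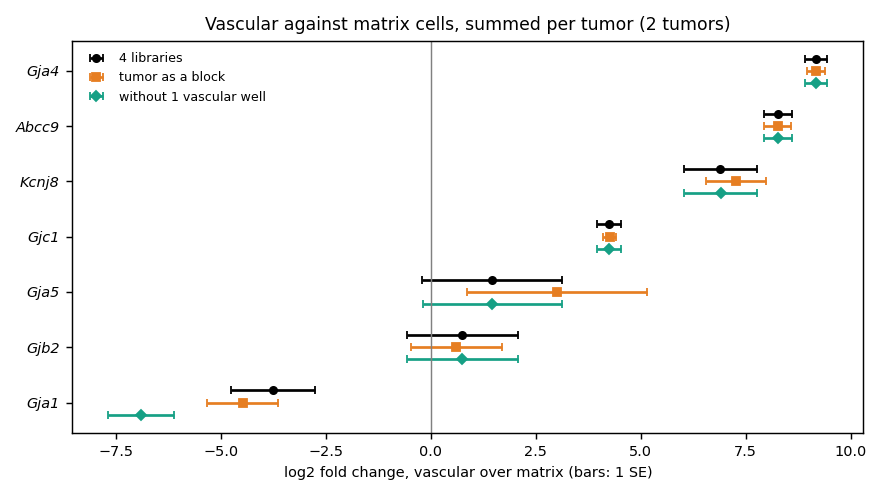
Log2 fold change of 7 of the genes in vascular over matrix cells (x axis, bars of 1 SE) from counts summed per tumor, with all 4 libraries, with the tumor as a block, and without the vascular well that held most Gja1 reads. Gja4, Abcc9 and Gjc1 lie close together in the 3 fits and Kcnj8 is at 6.90 and, with the block, 7.26, while Gja1 moves from -3.75 to -4.49 and -6.90.

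Cycling cells also carried the 4 genes of vascular cells. On the log2(RPKM + 1) scale the 23 and 18 cells averaged 8.18 and 6.67 for *Kcnj8* (7.42 ± 1.07, n = 2), 7.40 and 7.24 for *Abcc9*, 5.96 and 4.47 for *Gja4* and 7.61 and 7.80 for *Gjc1*. Both *Abcc9* and *Gjc1* were read in 41 of 41 cycling cells, and *Kcnj8* and *Abcc9* together in 39 (95.1%, 83.5 to 99.4). Against the other vascular cells, 1.56% of all genes were called (1.46% higher and 0.102% lower in cycling cells) and 0 of the 7 tested members by edgeR, with 3 at an unadjusted p of 0.05. DESeq2, which called 8.75% of all genes, called the same number (*Kcnj8*, *Gja4* and *Gja1*, all lower in cycling cells), and the vascular *Gja1* reads again came mostly from the single well of tumor 1. The log2 fold changes were -0.87 ± 0.29 for *Kcnj8* (adjusted p = 0.253), -0.48 ± 0.21 for *Abcc9* (0.368), -0.79 ± 0.17 for *Gja4* (0.128) and -0.04 ± 0.20 for *Gjc1* (0.955). Without the cycling library of tumor 1, *Kcnj8* (-1.33, adjusted p = 0.0147) and *Gja4* (-0.84, 0.0407) passed in a fit that called 18.8% of all genes, and without that of tumor 2 *Kcnj8* was at -0.52 (0.131). *Abcc9* was at -0.21 without the vascular library of tumor 2 (adjusted p = 1) and passed in none of these.

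The 4 genes of vascular cells were low in developmental cells. Summed CPM in the 2 tumors were 2.14 and 39.8 for *Kcnj8*, 2.56 and 64.3 for *Abcc9*, 0.427 and 7.11 for *Gja4* and 1.28 and 18.2 for *Gjc1*. The higher values of tumor 2 came from 1 of its 21 wells, which held 94% of the *Kcnj8*, 93% of the *Abcc9*, 88.9% of the *Gja4* and 97.1% of the *Gjc1* reads. The 69302 reads of this well also held 17705 CPM of vascular and 1688 CPM of epithelial markers. Against the vascular cells other than the cycling ones, the same libraries as in the cycling comparison, 5.68% of all genes were called (2.42% higher and 3.26% lower in developmental cells), and 1 member, *Gja4*, was lower (-7.24 ± 1.02, adjusted p = 0.0315, edgeR), a call that was just lost at a like size without the vascular library of tumor 1 (-7.37, 0.0522) or of tumor 2 (-7.18, 0.0508). *Kcnj8* (-6.75 ± 1.37, adjusted p = 0.0691), *Gjc1* (-6.15 ± 1.14, 0.0573) and *Abcc9* (-6.30 ± 1.5, 0.0935) did not pass. Without that well, which was chosen by its *Kcnj8* reads so that its removal is a description and no test, tumor 2 had 2.42 CPM of *Kcnj8*, 4.56 of *Abcc9*, 0.805 of *Gja4* and 0.537 of *Gjc1*. *Gja1* had 178.5 and 86.2 CPM in developmental cells and did not pass (2.13 ± 1.15, adjusted p = 0.369). The vascular libraries of this comparison held 49.1 and 5.06 CPM, that of tumor 1 mostly from the single well described above. The log2 fold change of *Gja1* was 4.58 without the vascular library of tumor 1 and 1.26 without that of tumor 2. With the graph clustering *Gja1* passed at 7.68 (adjusted p = 0.0292, edgeR), but the wells on both sides changed. The developmental cluster of that clustering held 29 developmental wells and the 10 wells of an unnamed, *Gja1*-rich map cluster described below. Its vascular clusters lacked the single *Gja1* well of tumor 1. *Gjb2*, with 823 and 19.2, did not pass either (8.12 ± 2.36, adjusted p = 0.137), but did so with the tumor as a block (7.19 ± 0.84, adjusted p = 0.0246), a fit that called 4.71% of all genes (2.24% higher and 2.47% lower) and 4 members: *Gjb2* higher and *Kcnj8*, *Gja4* and *Gjc1* lower. With 1 library left out, *Gjb2* ran from 3.62 (without the developmental library of tumor 1, adjusted p = 0.0959) to 10.29 (without the vascular library of tumor 1, 0.246), and it passed without the developmental library of tumor 2 (9.09, 0.00442), where 39% of all genes were called.

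Within the vascular cells, the graph clustering gave 7 main clusters, in which the 4 vascular genes varied in different ways. By the rule used for the populations, clusters 1 to 4 were vascular and 7 cycling. Clusters 5 and 6 stayed unnamed, although the map placed their cells with the vascular ones. In clusters 5 and 6, 2 and 0 of the 12 vascular markers were over 1 log2 unit above the other wells, against 8 in cluster 4. No vascular marker was among the 10 leading genes of clusters 4 to 7. The clusters were drawn from cells that also carry these values, so the levels are descriptions. *Kcnj8* was highest in clusters 2 and 3, with a mean log2(RPKM + 1) of 9.69 and 9.87 in cluster 2 (73 and 19 cells) and 10.48 and 10.00 in cluster 3 (9 and 76 cells). It was lower in cluster 4 (6.73 and 5.26, 55 and 24 cells), where *Acta2*, the smooth muscle actin, was highest with a mean of 11.18 and 10.94, against 5.58 and 5.91 in cluster 3. The 2 genes did not simply run against each other over clusters: cluster 1 had *Acta2* at 10.39 and 10.63 with *Kcnj8* at 9.17 and 8.51, and cluster 5 had 8.27 and 8.28 with *Kcnj8* at 5.12 and 6.73. *Gja4* did not follow this: its mean was 6.88 and 7.49 in cluster 4 and 6.06 and 7.57 in cluster 3. The cells with *Abcc9* but no *Kcnj8* read were found mainly in cluster 4 (5 and 6 cells), cluster 5 (4 and 3) and the shallow cluster 6 (4 and 4).

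The unnamed cluster 5 (30 and 41 cells), led by *Serpinf1*, *Col8a1* and *Loxl1*, the last of them a matrix marker, had the lowest *Gja4* of the 7 clusters. *Gja4* had a mean log2(RPKM + 1) of 2.48 and 2.2 there and was read in 43.3% and 39% of the cells, while *Gjc1* stood at 4.86 and 5.63, *Kcnj8* at 5.12 and 6.73 and *Abcc9* at 4.81 and 5.72. Matrix markers reached 3624 and 2907 CPM in this cluster, against 57.4 to 764.3 in the other 6 clusters, and their part in the lower *Gja4* level was not tested. *Gja1* had 1 read in each tumor among these cells. *Gja5* at 5 or more reads was found in 3 and 2 cells of cluster 5, 1 and 3 of cluster 4 and 1 and 2 of the cycling cluster.

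**Figure D5:**
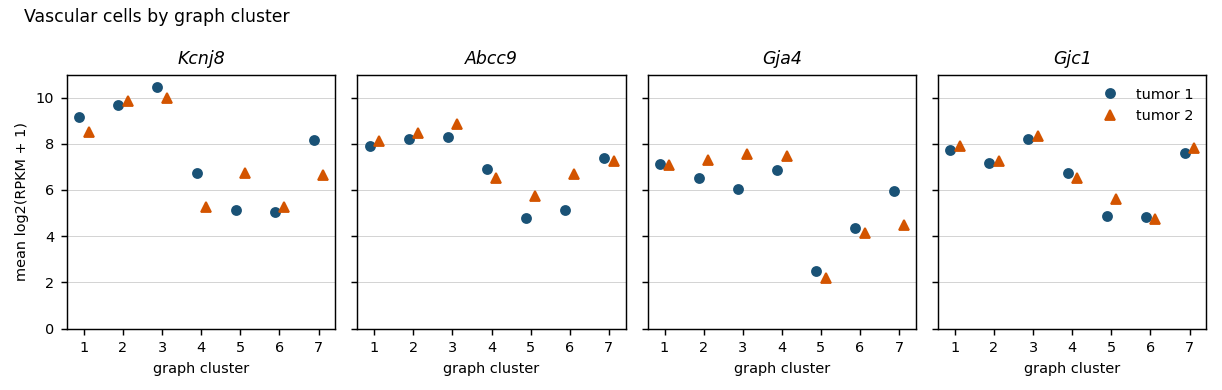
Mean log2(RPKM + 1) (y axis) of Kcnj8, Abcc9, Gja4 and Gjc1 in the vascular cells of graph clusters 1 to 7 (x axis), with 1 point per tumor; cluster 6 holds shallow cells and cluster 7 the cycling ones. Kcnj8 is at 10.48 and 10.00 in cluster 3 and at 6.73 and 5.26 in cluster 4, where Gja4 is at 6.88 and 7.49, and Gja4 is lowest in cluster 5 (2.48 and 2.2).

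Ranked by Spearman's rho of log2(RPKM + 1) over the 727 cells, tumor by tumor and taking the lower of the 2 tumors, the gene most like *Kcnj8* was *Abcc9* (0.79 and 0.84), and the reverse held. By Pearson's r *Abcc9* was again first for *Kcnj8* (0.88 and 0.88), but *Abcc9* itself was most like *Rgs5* (0.92 and 0.92), then *Higd1b* (0.88 and 0.90), with *Kcnj8* after them (0.88 and 0.88). By Spearman's rho *Kcnj8* was followed by *1810011H11Rik* (0.67 and 0.67), *Rgs4* (0.66 and 0.76), *Higd1b* (0.66 and 0.73) and *Gjc1* (0.65 and 0.72), and *Abcc9* by *Higd1b* (0.70 and 0.79), *Ano1*, a calcium-activated chloride channel (0.69 and 0.72), *Sparcl1* (0.67 and 0.67) and *Gjc1* (0.67 and 0.73). *Gja4* was most like *Rgs5* (0.68 and 0.71), a regulator of G protein signaling known from pericytes, then *Cox4i2* (0.68 and 0.67), *Esam* (0.64 and 0.66), *Itga7* (0.65 and 0.64) and *Ndufa4l2* (0.65 and 0.64). *Gja1* was most like *Pdpn* (0.69 and 0.64), then *Pdgfra* (0.62 and 0.62), a receptor of fibroblasts, *Ndufa4* (0.61 and 0.62), *Dclk1* (0.63 and 0.60) and *Dchs1* (0.63 and 0.60). These values run over all populations. Within vascular cells alone, *Abcc9* was still first for *Kcnj8* (0.64 and 0.70), with *Rgs4* next (0.44 and 0.57) and *Gjc1* again among the first 5 (0.44 and 0.50), and the 5 genes most like *Gja4* were *Rgs5* (0.48 and 0.51), *Ptp4a3*, *Cox4i2*, *Itga7* and *Esam*.

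Other genes of these channels and junctions were mostly low or level. None of the 15 other connexins reached a mean RPKM of 1, and 5 of them (*Gja6*, *Gja10*, *Gjd2*, *Gjd4* and *Gje1*) had 0 reads. *Gjc3* and *Gjb6* had the most reads, in 5 and 4 cells. Of 8 connexin partners, 3 were higher in vascular than in matrix cells and 0 lower (4 and 0 with the tumor as a block, which added *Tjp1*), beside 7.14% higher and 9.66% lower over all genes, with a median log2 fold change of 0.61: *Cav1*, the main protein of caveolae (4.54 ± 0.57, adjusted p = 0.00522), *Cdh2*, which encodes N-cadherin (3.48 ± 0.34, 0.00232), and the kinase *Src* (1.64 ± 0.17, 0.00288). Of the 7 listed KATP partners 5 could be tested, and *Prkacb*, a catalytic subunit of protein kinase A, was higher (2.74 ± 0.20, adjusted p = 0.00116) and 0 were lower. *Panx1*, a channel protein related in topology to connexins, did not pass (-0.91 ± 0.27, adjusted p = 0.0770).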

How the data were processed

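Smart-seq2 libraries of single sorted cells from 2 tumors were sequenced with reads of 43 bases. The authors aligned the reads to mm10 and deposited a table of raw read counts per RefSeq gene and well, without strand and without molecular identifiers, and a second table of RPKM values made by the authors from the same reads. Wells were assigned to tumors from the titles in the labels, and plate and tumor coincide. Here, 727 of 768 wells with at least 10000 reads on endogenous genes were kept. The 8 genes and all gene lists were chosen with earlier results of these data known.

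Populations were made after the design of the study. Genes other than the members and their listed partners were ranked by the variance of their scaled read counts over a fit to the added control RNAs (ERCC). The log2(RPKM + 1) values of the first 557 genes were reduced to 30 principal components. Rtsne 0.17 laid these out (perplexity 27, the lowest-cost of 50 maps), and DBSCAN (scikit-learn 1.9.0, eps 3.1, at least 5 points) drew the clusters. Components were rounded because the map otherwise changed with the number of processor threads. This step and the final naming rule were set after clusters had been seen. A name needs at least 50% of its markers read in over 50% of the wells. At least 50% of its markers must also be over 1 log2 unit above the other wells, and no other list may have more markers among the top 10 genes. Cycling cells came from a Leiden graph clustering (scanpy 1.11.5, leidenalg 0.10.2, resolution 1, 15 neighbours) of the same genes. No doublet caller was run, since cells were sorted singly.

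Levels are log2(RPKM + 1), and shares carry exact binomial intervals, with 3 counts as the limit of a count of 0. Counts were summed per tumor and population and compared by the quasi-likelihood test of edgeR 4.0.16 with TMM scaling over the 11715 genes whose RPKM averaged 1 or more, with Benjamini-Hochberg adjustment at 0.05. Libraries that share a tumor share an animal and are paired, with deviations from the group means that correlated at r = 0.118 over 11715 genes. In simulated libraries of the vascular against matrix comparison, over 11715 genes, 64 of 100 genes changed 4-fold, 95 of 100 changed 16-fold and 7 of 11515 unchanged genes were called. The changed genes were drawn from those above a floor of expected reads. The simulated libraries were independent, with a spread set by the mean level only. These shares therefore do not carry over to genes with few reads or with reads from single wells, such as *Gja1*. Genes named beside the members are the 5 of highest Spearman correlation in the lower tumor and the listed partners that passed the test. Alternatives were DESeq2 1.42.0, a tumor block, other filters, other clusterings, 5 reads as detection, thinning to 50000 reads and leaving out libraries. Promoter windows and positions came from RefSeq tables of GRCm38.p6. R 4.3.3, Python 3.11.15 and scipy 1.17.1 were used.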

Additional observations from a re-analysis of the deposited data

Results flagged for a closer look

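Reads of 4 of the genes were found in the 41 wells left out for having fewer than 10000 reads on endogenous genes (at most 9665 reads each, 100255 in all), a part of the data that no comparison above uses. *Kcnj8* had 19 reads in 14 of these wells, *Abcc9* 33 reads in 21, *Gja4* 7 reads in 7 and *Gjc1* 7 reads in 7. Each count exceeds the 3 reads that a count of 0 allows. Summed over these wells, *Kcnj8* came to 189.5 and *Abcc9* to 329.2 CPM. *Gja1* had 1 read, and *Abcc8*, *Gja5* and *Gjb2* had 0. The wells have no population, so these values enter no group.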

How the results depend on the processing

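*Kcnj8*, *Abcc9*, *Gja4* and *Gjc1* were higher in vascular than in matrix cells, past the threshold, in each of 18 alternatives (the second map gave the same cells and so tested nothing), with log2 fold changes of 6.15 to 8.62, 8 to 8.77, 8.73 to 9.54 and 3.98 to 4.57 and largest adjusted p-values of 0.0382, 0.0196, 0.00411 and 0.0374. *Gja1* was lower in all of them (-8.59 to -2.88) and passed in 8, among them 2 that leave out the vascular well chosen by its *Gja1* reads, and DESeq2 (-3.76, adjusted p = 0.0221). The graph clustering and the fit without the vascular library of tumor 1, both among the 8, lack that well too. Leaving out the vascular library of tumor 1 gave -6.18 (adjusted p = 0.00041) and that of tumor 2 -2.89 (0.00188), where a lone library is assumed to vary like the other groups. The share of tested genes called (16.8%) was 25.3% with DESeq2, 4.71% with all populations in 1 fit, 1.51% at an adjusted p of 0.001 and 10.6% to 13.8% with 1 library left out, and members called were 4 to 5 (3 at 0.001). *Gja5* and *Gjb2*, which did not pass, turned to -0.73 and -0.85 with the graph clustering, and ran from 0.45 to 10.86 and from -1.40 to 2.44 with 1 library left out. *Gja5* passed there once (adjusted p = 0.0249), without the matrix library of tumor 2, where the other matrix library holds 0 reads of it and the fitted fold depends on the prior count. With the tumor as a block, 2342 genes (20%) were called in place of 1969, *Gja1* passed at -4.49, and the other members kept their side of the threshold; together with leaving out the vascular *Gja1* well it was -7.19, a description.

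Against vascular cells, cycling cells (1.56% of genes called) gave 8.75% by DESeq2 and 0.666% to 18.8% with 1 library left out, with 3 members by DESeq2 and 0 to 2 in the latter, and *Gjc1* ran from -0.23 to 0.18. Developmental cells (5.68%) gave 17.9% by DESeq2 and 1.66% to 39% with 1 library left out. Their members called (1) were 4 with the block (4.71% of genes), 5 by DESeq2, 3 without a filter (5.62%), 4 without the 1 well chosen by its *Kcnj8* reads (6.38%), 5 with the graph clustering (5.28%; *Gja1* among them) and 0 to 6 with 1 library left out, 0 without either vascular library. *Gja5* was 0.94 with the graph clustering and -10.43 to 0.24 with 1 library left out, the former without the developmental library of tumor 2, where 0 reads remain. The block changed no other call of a member.

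The share of vascular cells with both channel subunits (90% as a mean of the 2 tumors) was 85.2% at 5 reads, 89.6% at an RPKM of 1, 92.9% in wells of 50000 reads and 95.9% with the graph clustering, whose vascular clusters leave out the cycling cells and those of the unnamed clusters 5 and 6. In matrix cells (28.6%) it was 2.77%, 9.38% and, after thinning, 5.73%. *Gja4* led in 41.2% of vascular cells after thinning and 46.2% in that smaller set of vascular cells, against 38.5%, and *Gja1* in 66.6% of matrix cells at 5 reads, against 70.9%. The alternatives added after the data were seen were: cycling cells left out, the single wells left out, the block without the *Gja1* well, and the graph clustering for developmental cells. Vascular cells with neither subunit had a median depth of 60648 and 28662 reads.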

Other observations

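The matrix cells with most *Kcnj8* reads lay in 1 small group, chosen here after its values were seen, although 35.2% and 50% of the matrix cells of the large graph cluster 0 also held at least 1 read. All 5 matrix cells with 5 or more *Kcnj8* reads (4 in tumor 1 and 1 in tumor 2) fell in graph cluster 9, which holds 7 cells (4 and 3) and is led by *Ly6a*, *Ly6c1*, *Dpt*, *Efemp1*, *Cd34* and *C3*, genes known from resting connective tissue fibroblasts. *Kcnj8* summed to 606 and 29 CPM in these cells, against 1.66 and 2.76 in the matrix cells of graph cluster 0 (71 and 62 cells). The top well of tumor 1 held 72 reads of *Abcc9* and 0 of *Gja4* and *Gjc1*.

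*Gja1* was also read in a cluster of 10 wells (1 in tumor 1 and 9 in tumor 2) that stayed unnamed and was led by *1500015O10Rik*, *Igfbp5*, *Spp1* and *S100a4*. The graph clustering placed these 10 wells in its developmental cluster. In the unnamed cluster, 7 of 12 matrix markers and 5 of 8 developmental markers were over 1 log2 unit above the other wells. In tumor 2, 8 of its 9 wells held *Gja1*, with 583 reads and an average of 5.66 on the log2(RPKM + 1) scale, and 4 reads of *Kcnj8* were found in 4 of its wells. The other unnamed cluster of 6 shallow wells, led by hemoglobin genes, held 0 reads of *Gja1* and *Gja4*.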
